A study of Mus musculus with 36 samples.

Results

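DNA methylation of the Ikaros series was compared between late induction, 12 h and 18 h, and early induction, 2 h and 6 h. These were 12 of the 36 samples measured by reduced representation bisulfite sequencing (RRBS), 6 late and 6 early, with 3 replicates at each time point. B3 is a mouse pre-B cell line. All the compared cells carried an MSCV retroviral vector with HA-tagged Ikaros fused to ERt2 and followed by IRES-GFP, and GFP-positive cells had been sorted. The ERt2 domain holds Ikaros out of the nucleus until 4-hydroxytamoxifen (4-OHT) is added, and the labels give 0.5 uM 4-OHT at every time point. The Control series carried the vector with ERt2 and no Ikaros and received the same drug, so its 12 samples of the same time points are given beside the Ikaros values. At 0 h the labels name the drug while the methods describe untreated cells, and in the main comparison the 0 h samples served only to class the clusters by starting level and as values set beside the results. Each series is 1 transduced line, so replicates are cultures of that line.

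Replicates 1, 2 and 3 at these time points were batches 1, 3 and 4 of the labels, and the batch was kept as a block. The comparison rested on CpG clusters, which are runs of listed CpG positions at most 100 bp apart. A cluster's level in a sample was the mean, in percent, over the positions that had a value in all 12 samples, 1085971 of 1116417. Of 18009 clusters, 17943 had such positions and were analysed, with a median of 45 positions. The reads behind each level are unknown, so precision is given by the spread between samples.

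Methyl groups at CpG dinucleotides are copied to the new strand by DNMT1 after replication, laid down anew by DNMT3A and DNMT3B and oxidised by the TET enzymes. Dense CpG islands at the starts of active genes are usually unmethylated, gene bodies and silent promoters are often methylated, and imprinted control regions carry the mark on the copy from one parent. Ikaros, the product of Ikzf1, is a zinc finger factor needed for lymphoid development, and in pre-B cells it represses proliferation genes and works with the NuRD remodelling complex. The question of this comparison is whether methylation differs between the first hours of induced Ikaros and the hours in which the cells leave the cell cycle.

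No cluster passed the test. By limma with Benjamini-Hochberg adjustment, 0 of 17943 clusters (0%) had an adjusted p under 0.05, and the smallest adjusted p was 0.532. At an unadjusted p under 0.05 there were 799 clusters, 4.45% of all, with 568 (3.17%) at a higher late level and 231 (1.29%) at a lower one. The 6 late values lay wholly above the 6 early ones in 26 clusters (0.145%) and wholly below in 9 (0.0502%), against 13 and 9 in the Control series. The clusters described one by one below are therefore the leading candidates of a comparison without calls.

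The sequences of 4 leading clusters show what such a cluster looks like in a promoter, a coding exon and an upstream region. They are the clusters with the smallest limma p among those described below, at Klhl32, Scube3, Dedd2 and Gprin1. Each is printed from the forward strand of GRCm38 (RefSeq), at most 300 bases, from the stretch without untranslated exon that held the most listed positions. Capitals mark the CpG dinucleotides listed in the deposited levels, and a CG in lower case was not listed.
Klhl32, chr4:24850592-24850737: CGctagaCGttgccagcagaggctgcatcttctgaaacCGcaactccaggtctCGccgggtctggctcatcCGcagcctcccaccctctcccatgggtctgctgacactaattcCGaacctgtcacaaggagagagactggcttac
Scube3, chr17:28167505-28167804: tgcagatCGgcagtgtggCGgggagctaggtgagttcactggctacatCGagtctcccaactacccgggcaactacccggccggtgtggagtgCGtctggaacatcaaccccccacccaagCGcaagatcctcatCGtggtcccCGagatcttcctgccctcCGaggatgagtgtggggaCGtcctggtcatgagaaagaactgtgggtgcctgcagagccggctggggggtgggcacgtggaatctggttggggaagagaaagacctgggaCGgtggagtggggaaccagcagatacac
Dedd2, chr7:25218810-25219109: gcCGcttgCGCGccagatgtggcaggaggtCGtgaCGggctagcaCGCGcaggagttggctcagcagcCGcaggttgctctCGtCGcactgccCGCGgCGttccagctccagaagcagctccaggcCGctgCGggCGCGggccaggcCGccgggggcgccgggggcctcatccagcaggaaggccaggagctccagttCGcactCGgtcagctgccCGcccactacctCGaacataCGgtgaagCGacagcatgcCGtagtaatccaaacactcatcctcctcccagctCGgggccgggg
Gprin1, chr13:54749875-54750062: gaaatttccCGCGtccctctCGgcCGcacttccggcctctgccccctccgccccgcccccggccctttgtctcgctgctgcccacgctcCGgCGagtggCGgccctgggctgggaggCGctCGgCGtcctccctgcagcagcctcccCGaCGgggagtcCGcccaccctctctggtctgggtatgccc
The Klhl32 stretch is sparse, with 6 listed CpGs in 146 bases, and the Dedd2 stretch is dense, with 26 in 300. All 300 bases of the Dedd2 stretch and 198 of the 300 of the Scube3 stretch are coding. RRBS fragments are cut by MspI at CCGG, on either strand since the site reads the same on both. The 4 stretches hold 1, 4, 3 and 3 of these sites in the order printed, and 92.9% of all clusters hold at least 1.

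Clusters were grouped by their level at 0 h, the mean of the 3 Ikaros samples outside the contrast. There were 8440 low clusters (under 10%), 7421 high clusters (over 90%) and 2082 partly methylated ones between. The mean over low clusters was 0.873% ± 0.134 early and 0.924% ± 0.119 late (SD, n = 6 each). The late minus early difference was 0.0509 percentage points (95% interval -0.136 to 0.235, p = 0.509, two-sided exact permutation within batches). High clusters averaged 95.9% ± 0.154 early and 96.1% ± 0.193 late, a difference of 0.161 points (-0.108 to 0.425, exact p = 0.185). In both classes, which hold most clusters, the mean levels of the groups overlapped and their difference was under 0.5 points at either end of the interval.

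Partly methylated clusters averaged 61.7% ± 0.303 early and 62.0% ± 0.459 late, a difference of 0.365 points (-0.189 to 0.925, exact p = 0.185). The median over these clusters differed by more, 0.835 points (exact p = 0.0556, adjusted p = 0.352 over the 8 mean levels taken as medians). Over all clusters the mean was 47.2% ± 0.136 early and 47.4% ± 0.162 late, and the difference was 0.133 points (-0.0968 to 0.358, exact p = 0.185). The smallest p that the 216 rearrangements allow is 0.00926, which 1 mean level alone could not have brought under 0.05 after adjustment over the 8. The adjusted p-values ran from 0.333 to 0.778.

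**Figure D1:**
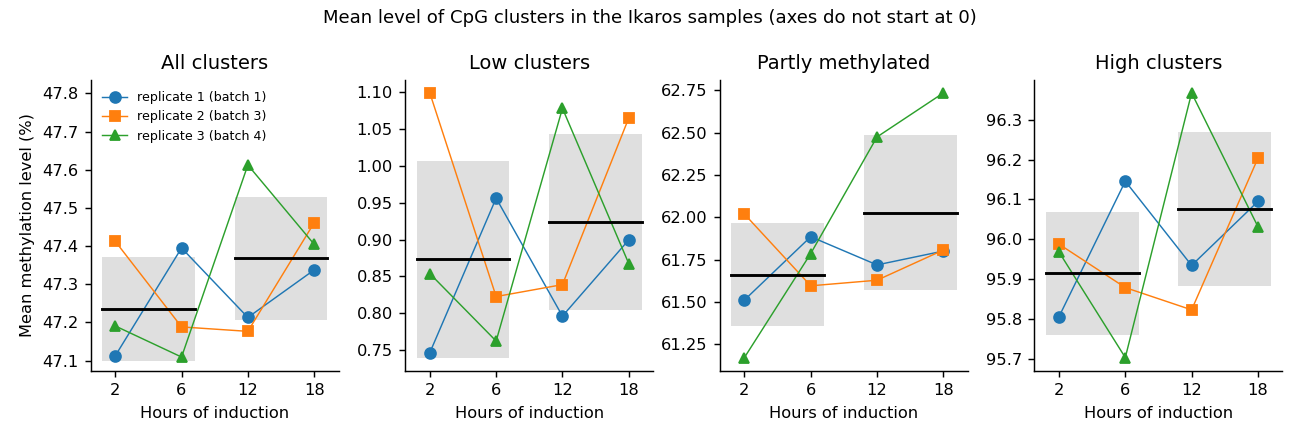
Mean methylation level (%) of all, low, partly methylated and high clusters in the 12 Ikaros samples by hours of induction, with the replicates of a batch joined by a line. Black bars are the means of the early and late groups and grey bands 1 SD to either side; replicate 3 lies highest at 12 h in each panel, and the early and late bands overlap in all of them. The axes do not start at 0.

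The small upward shift lay mostly in batch 4. Over all clusters the late minus early difference was 0.0216 points in batch 1, 0.0184 in batch 3 and 0.358 in batch 4. In partly methylated clusters these differences were 0.0614, -0.0897 and 1.12 points. Batch 4 holds the 12 h replicate 3, which stood apart from the other 11 samples. Its root mean square distance from the mean of the others was 3.48 points, against 2.24 to 3.06 for the rest. Of its positions 1.07% were empty and 41.2% exactly 0% or 100%, against 0.139 to 0.519% and 26.9 to 35.8% in the others. Without it the difference over all clusters was 0.0982 points (exact p = 0.296), over low clusters 0.0157, over partly methylated clusters 0.409 and over high clusters 0.105. Other samples moved these means as far. The difference over all clusters was 0.0854 points without the 18 h replicate 2 and 0.0857 without the 2 h replicate 1, and over high clusters 0.0974 and 0.104. Over low clusters it ran from 0.00473 without the 6 h replicate 2 to 0.0970 without the 2 h replicate 2. The part that empty and extreme values have in these differences was not tested.

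By gene context, 14551 clusters were at promoters (within 1000 bp of a transcript start), 1569 in exons, 615 in introns and 1208 between genes. Promoter clusters averaged 39.1% ± 0.135 early and 39.3% ± 0.148 late, a difference of 0.130 points (-0.0759 to 0.338, exact p = 0.176). It was 0.0828 points without the 18 h replicate 2 and 0.0869 without the 2 h replicate 1, and the median over promoter clusters differed by 0.0399 (exact p = 0.843). Exon clusters, at 89.2% ± 0.164 early, differed by 0.174 points (-0.166 to 0.486, exact p = 0.241), and intergenic clusters, at 75.2% ± 0.166, by 0.156 (-0.166 to 0.475, exact p = 0.25). The exon difference was 0.103 points without the 12 h replicate 3, 0.107 without the 2 h replicate 1 and 0.113 without the 18 h replicate 2, and the intergenic one 0.0938 without the 2 h replicate 1. Promoters were thus the least methylated context and exons the most, at early and late times alike. Intron clusters, at 76.9% ± 0.140, differed by 0.0384 points (-0.298 to 0.352, exact p = 0.778). Their median differed by 0.239 points (exact p = 0.167). The direction of the mean turned without the 12 h replicate 3, to -0.0370 points, without the 2 h replicate 1, to -0.0121, and without the 18 h replicate 2, to -0.0497.

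In the Control series the mean over the 17680 clusters with values in all compared samples of both series was 46.8% ± 0.0995 early and 46.8% ± 0.165 late, a difference of 0.00694 points (exact p = 0.954). The Control differences of the 8 mean levels lay between -0.0671 and 0.0273 points. Over the same clusters the Ikaros difference was 0.123 points, which exceeded the Control difference by 0.117 (exact p = 0.373). None of the 8 tests of this excess passed, with adjusted p from 0.641 to 0.957, so the series were not shown to differ. Cluster by cluster, 0 of 17672 (0%) had an adjusted p under 0.05 for the difference between the series, and 713 an unadjusted one. The Control series on its own gave 0 of 17718 (0%) and 729.

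How large a difference could have been seen depended on the starting level. The median half-width of the 95% interval of a cluster's difference was 0.570 points in low, 1.73 in high and 4.24 in partly methylated clusters. The interval lay within 5 points of 0 in 98.5% of low, 90.7% of high and 40.6% of partly methylated clusters. Taken one at a time, changes of more than 5 points between early and late times are therefore outside the 95% interval for nearly all low clusters. The same holds for 90.7% of high clusters, but not for most partly methylated ones.

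A difference of at least 5 points was seen in 269 clusters (1.50%), 162 higher and 107 lower, and 231 of these 269 were partly methylated. In the partly methylated class that was 11.1% of clusters in the Ikaros series and 10.1% in the Control series. At 10 points or more the shares were 2.50% and 1.77%. Low and high clusters that far apart were rare, 0.0948% and 0.404% at 5 points in the Ikaros series against 0.0718% and 0.645% in Control. The large differences thus sat in the class with the widest spread, in both series. Without the 12 h replicate 3 the counts at 5 points were 161 higher and 110 lower.

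**Figure D2:**
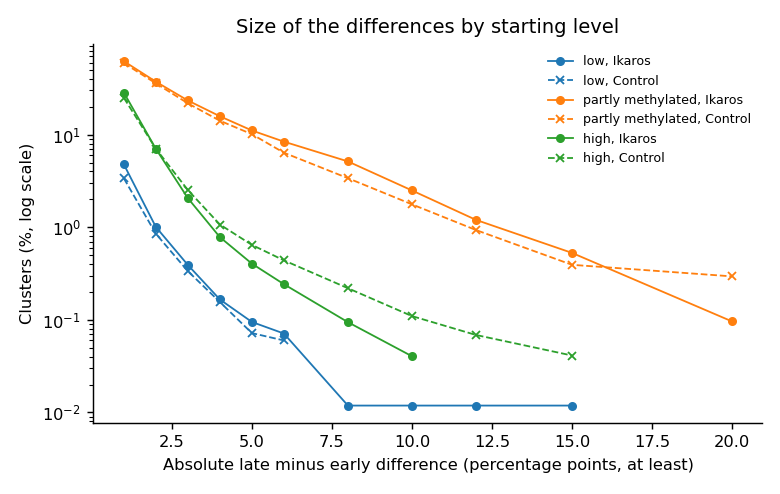
Share of clusters (%, log axis) whose absolute late minus early difference was at least the value on the horizontal axis (percentage points), by starting level, for the Ikaros series (solid lines) and the Control series (dashed lines). Partly methylated clusters lie far above the other classes in both series, with 11.1% and 10.1% at 5 points; shares of 0 are not drawn.

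The differences did not recur between batches. Across the 17943 clusters, Pearson's r between the late minus early differences of 2 batches was -0.00402, -0.000496 and 0.0105 for the 3 pairs of batches. Clusters are not independent replicates, and these values are a description. All 3 batches moved upward in 2921 clusters (16.3%) and downward in 1558 (8.68%). Levels were higher late in 58.0% of clusters and lower in 41.6%. Without the 12 h replicate 3 the first share was 53.8%, and in the Control series it was 51.7%. The same holds for clusters at an unadjusted p under 0.05, where 71.1% were higher with all 12 samples and 63.3% (464 higher, 269 lower) without that replicate. Without it, 40 of the 17943 clusters had groups that did not overlap upward and 22 downward, in groups of 5 and 6. Smaller groups separate more easily, so these counts are not comparable with those of all 12 samples.

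The 0 h and 24 h samples were not part of the contrast. The 24 h replicate 2 had 3.18% empty positions and 59.1% exactly at 0% or 100%, more than any compared sample, and at 0 h replicate 2 belongs to batch 2, so these levels were not paired by batch. Of the 568 higher clusters at an unadjusted p under 0.05, 57.9% were also higher at 24 h than at 0 h, and this was so for 56.4% of all clusters. Of the 231 lower clusters 49.4% were lower at 24 h, against 41.6% of all. Without the 24 h replicate 2 these shares were 59.9% against 57.9% and 49.4% against 39.8%. Among the clusters that were not low, the median absolute difference was 0.893 points in those with the fewest positions (4 to 24) and 0.479 in those with the most (64 to 1034).

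For a closer view, the 10 clusters with the smallest limma p in each direction were taken among those that differed by at least 2 points, had 1 sign in all 3 batches and kept it without the 12 h replicate 3. There were 437 such clusters with a higher late level and 293 with a lower one. The 20 leading clusters comprised 13 at promoters, 3 in exons, 1 in an intron and 3 between genes, and 12 were high, 7 partly methylated and 1 low. Their adjusted p-values were 0.532 to 0.949, and their order was chosen on this contrast, so their differences are given as values without support from a test.

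Of the clusters with higher late levels, Klhl32, which encodes a Kelch-like protein, led the order (chr4:24850592-24851028, at its promoter, 46 positions). Early levels ran from 38.4 to 54.3% with a median of 43.2%, and late levels from 49.2 to 73.7% with a median of 56.5%. Late samples were higher within every batch, but 12 h replicate 1, at 49.2%, lay below 2 h replicate 3, at 54.3%, so the groups overlapped. The difference was 14.3 points (9.75 to 18.8, adjusted p = 0.532, limma), and in the Control series it was -1.14. At 0 h the level was 48.3% ± 14.0 and at 24 h 53.7% ± 21.4 (SD, n = 3), a wider spread than in either compared group.

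The Dedd2 cluster (chr7:25218810-25219464, 79 positions) lies at the promoter of a gene for a death effector domain protein linked to apoptosis, and also near a start of 4933430L12Rik. Its early levels were 16.9 to 20.5%, median 18.9%, and its late levels 21.5 to 25.3%, median 24.6%. The groups did not overlap. The difference was 5.14 points (3.39 to 6.89, adjusted p = 0.532, limma), with 7.16, 2.97 and 5.29 in the 3 batches. In Control it was -1.18 points. The 0 h samples averaged 22.7% ± 5.99 and the 24 h samples 19.5% ± 7.45, so the levels outside the contrast did not follow a course from low to high.

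The largest difference of the 20 was at Gm24187, a predicted microRNA gene (chr13:9834319-9834457, 32 positions). Early levels were 49.6 to 80.5%, median 55.5%, and late levels 76.7 to 96.6%, median 86.3%. Only 2 h replicate 3, at 80.5%, reached into the late range. The difference was 28.3 points (16.3 to 40.2, adjusted p = 0.798, limma), and the Control series had -13.8 points. The 3 samples at 0 h lay at 97.4, 41.8 and 45.6%, which spans the range of both groups. A cluster between genes on the X chromosome (chrX:14416602-14416775, 205454 bp from the start of H2al1n, a histone gene) had early levels of 86.2 to 95.3% and late levels of 96.5 to 100%, which did not overlap. In the Control series 1 early sample had no value there, so no difference was fitted; the other early samples averaged 96.3% ± 3.31 (SD, n = 5) and the late ones 92.4% ± 7.04 (SD, n = 6), over the positions each sample had.

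Several promoters of this group started near full methylation. Gprin1, a gene of neurite outgrowth (chr13:54749626-54750062), had 94.5% ± 1.39 early and 96.8% ± 1.08 late. Dach1, which encodes a transcriptional cofactor (chr14:98168225-98168543), had 94.6% ± 1.30 and 97.9% ± 0.930, with groups that did not overlap. Pth1r, the receptor of parathyroid hormone (chr9:110743565-110743973), had 94.7% ± 1.00 and 97.3% ± 1.14. At these sites the differences were 2.32, 3.28 and 2.60 points, and the Control differences -0.361, -0.514 and 0.317. H2-Q6, a class I histocompatibility gene with close relatives whose reads may be shared, had 83.3% ± 1.65 and 87.8% ± 1.50 (chr17:35424803-35425377), and the Control series moved by 2.90 points there. An intergenic cluster 61110 bp from Rgs2 had 96.3% ± 2.63 and 98.3% ± 2.08, over 12 of its 20 positions. Its whole length is masked as repeat in the genome sequence.

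Of the clusters with lower late levels, an exon of Scube3, a secreted protein with EGF-like domains, led the order (chr17:28167453-28167804, 19 positions). Early levels were 91.4 to 95.8%, median 94.0%, and late levels 87.8 to 93.0%, median 90.6%. The batch differences were -3.02, -3.30 and -4.01 points, while the groups overlapped across batches. The difference was -3.44 points (-4.59 to -2.29, adjusted p = 0.532, limma), against 2.96 in Control. The 24 h level, 88.2% ± 3.81, was also below the 0 h level, 94.7% ± 2.89.

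Groups did not overlap in 5 of the 10 lower clusters, namely Crybg2, Gramd1b, Grip1, Gm13814 and the one near Gsx1. Such clusters were 0.0502% of all, 9 in the Ikaros series and 9 in Control, and since the 10 were chosen on this contrast nothing is read from their count. At the Crybg2 promoter (chr4:134081678-134082104) early levels were 19.4 to 23.2% and late levels 14.4 to 18.5%, a difference of -3.69 points, against 0.979 in Control. At the promoter of Gramd1b, whose product moves cholesterol from the plasma membrane (chr9:40530905-40531576), early levels were 92.1 to 93.2% and late levels 87.7 to 91.6%. The early samples thus lay closer to each other than the late ones. In an intron of Grip1, which binds glutamate receptors, the levels were 92.4 to 95.4% and 88.9 to 92.2%. In an exon of the noncoding gene Gm13814 they were 95.4 to 96.5% and 91.6 to 95.2%, and 2270 bp from the start of the homeobox gene Gsx1 they were 92.8 to 95.4% and 88.4 to 92.0%. The Control differences at Gramd1b, Grip1 and near Gsx1 were negative too, -1.48, -3.63 and -1.77 points.

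The only low cluster of the 20 was at the promoter of Ptger2, a prostaglandin E2 receptor (chr14:44989014-44989304, 18 positions). Early levels were 2.39 to 5.49%, median 3.68%, and late levels 0 to 2.67%, median 0%. At 0 h the level was 0.737% ± 1.28 and at 24 h 0.383% ± 0.664, so the early group stood above the samples before and after it. Gcsh, of the glycine cleavage system (chr8:116993085-116993706), had 23.1% ± 2.57 early and 18.3% ± 1.92 late, and Pphln1, which encodes a part of the HUSH silencing complex (chr15:93399158-93399393), had 84.3% ± 3.62 and 78.1% ± 3.20. At both the 24 h level was above the 0 h level, by 6.13 and 6.63 points. Maged1, an adaptor protein gene on X (chrX:94541200-94541952), had 96.9% ± 0.736 and 94.6% ± 1.34, and the Control difference, -2.57 points, was as large as the -2.27 of the Ikaros series.

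**Figure D3:**
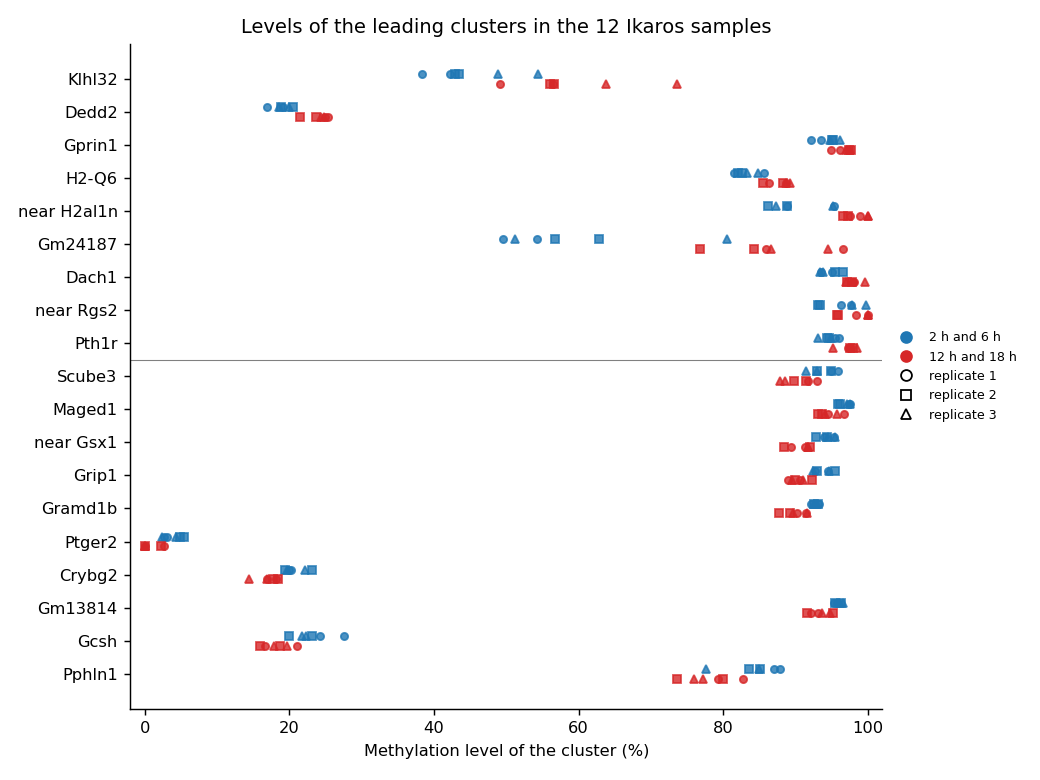
Methylation level (%) of 19 of the 20 leading clusters in each early (blue) and late (red) Ikaros sample, with a symbol for each replicate; those with higher late levels stand above the line. Gm24187 and Klhl32 show the widest gaps and the widest spread within a group, while most of the others lie near full methylation.

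The 0 h and 24 h samples and the Control series gave no common direction for the 20 clusters. The 24 h minus 0 h difference had the sign of the late minus early difference in 11 of the 20, 5 higher and 6 lower, and in 9 without the 24 h replicate 2. The Control difference had the same sign in 11 of the 19 that had one, 4 of 9 higher and 7 of 10 lower. The 0 h mean was nearer to the late than to the early mean in 9, and the 24 h mean in 8. None had an adjusted p under 0.05 for the difference between the series, where the smallest adjusted p of all clusters was 0.963. At Klhl32 that difference was 15.7 points (7.15 to 24.2) and at Crybg2 -4.67 (-7.06 to -2.29). It was 42.1 at Gm24187 (12.1 to 72.1) and 0.247 at Grip1 (-4.37 to 4.87). The clusters were chosen on the Ikaros part of this difference, so an interval without 0 is no support for a difference between the series.

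**Figure D4:**
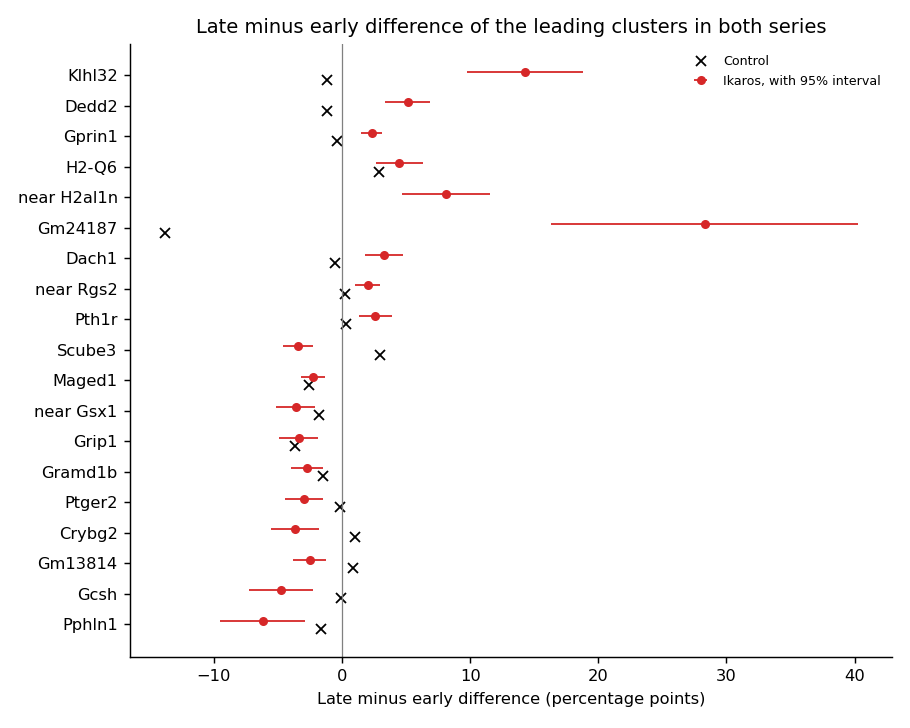
Late minus early difference (percentage points) of 19 of the 20 leading clusters in the Ikaros series, with its 95% interval, and in the Control series (crosses). The intervals do not reach 0 because the clusters were chosen on this contrast; the Control values lie on either side of 0, and the cluster near H2al1n has no fitted Control value.

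Promoter clusters of 13 gene lists were examined, 246 genes in all, and no cluster of any list passed the test. The lists were chosen with earlier results of these data known. Of the pre-B identity genes 3 had a cluster, the factors Pax5 and Ebf1 and the surrogate light chain gene Vpreb1, and all were nearly free of methylation. Pax5 had 1.02% ± 0.189 early and 1.01% ± 0.276 late, Ebf1 0.0651% ± 0.159 and 0.0668% ± 0.164, and Vpreb1 0.251% ± 0.337 and 0.365% ± 0.273. Cd79a, Cd79b, Rag1 and Rag2 had no cluster near a start, and only these 3 of 12 genes were described. Low levels there do not identify the cells, since 8113 of all 14551 promoter clusters were low.

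Genes of other blood lineages had few clusters, at 5 of 12 myeloid and erythroid genes and 4 of 13 T and NK cell genes. Of the 7 myeloid and erythroid clusters 5 were high, 1 partly methylated and 1 low. Of the 6 at T and NK cell genes, 3 of them at Gata3, 2 were high and 4 partly methylated. At an unadjusted p under 0.05, 1 of the 7 was higher and none lower, and none of the 6 was either. Of all clusters 3.17% were higher and 1.29% lower, and with so few clusters nothing is read from these counts. Cebpa, the myeloid master factor, had 97.3% ± 1.02 early and 98.1% ± 0.976 late (chr7:35119832-35120900). Another Cebpa cluster was lower late in the mean, with early levels of 96.1 to 99.0% and late levels of 95.6 to 98.4%. Lck, the T cell kinase, had 44.7% ± 1.17 and 46.6% ± 2.89 (chr4:129556199-129556785). There 12 h replicate 1 was at 52.0% and the other late samples at 44.0 to 47.1%. At Gata3, a T cell factor, 3 clusters ranged from 9.67% through 36.9% to 97.9% early, and the middle one spread so widely between samples that its difference had an interval of -15.3 to 14.3 points. The differences of these other-lineage clusters lay between -2.21 points at Cebpe and 2.03 at Epor. The first was -0.925 without the 12 h replicate 3, and the second 1.18 without the 2 h replicate 1.

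The Ikaros family and B cell factors held 36 clusters at 20 of 26 genes, 24 of them low, with a median difference of 0.0945 points, against 0.0791 over all promoter clusters. None had an unadjusted p under 0.05, where 4.45% of all, 4.14% of promoter and 2.29% of low promoter clusters had one. With so few clusters nothing is read from the absence. A cluster at Ikzf1 itself (chr11:11685839-11686045) was methylated at 98.8% ± 0.577 early and 98.1% ± 0.540 late. At Ikzf3, which encodes Aiolos, the levels were 35.6% ± 3.95 and 37.5% ± 6.50 (chr11:98545724-98546059), and the difference turned to -0.554 points without the 18 h replicate 2. Pou2f2, the gene of the B cell factor Oct-2, had 71.5% ± 12.9 and 64.7% ± 4.98 (chr7:25179693-25179882), a difference of -6.78 points (-17.5 to 3.95) that lay mostly in batch 4, at -20.7. It was -4.28 points without the 12 h replicate 3 and -4.15 without the 6 h replicate 3.

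Genes of the cell cycle, glycolysis, cytokine signalling, remodelling and pre-B receptor lists were unmethylated at most promoters. Of 39 cell cycle clusters 32 were low, of 30 Myc and glycolysis clusters 28, of 22 Il7, Jak and Stat clusters 19, of 38 NuRD and remodelling clusters 31 and of 16 pre-B receptor signalling clusters 12. Their median differences were 0.0331, 0.145, -0.0365, 0.0203 and 0.0502 points. In these 5 lists 1, 1, 0, 1 and 0 clusters were higher and 0, 0, 1, 0 and 0 lower at an unadjusted p under 0.05, against 3.17% and 1.29% of all clusters. These clusters belonged to 26 of 27, 22 of 25, 15 of 18, 19 of 19 and 10 of 22 genes of the lists.

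Among them, Cdkn2a, which encodes cell cycle inhibitors, was partly methylated. One of its clusters (chr4:89295222-89295625, 60 positions) had early levels of 37.8 to 49.5%, median 44.6%, and late levels of 43.1 to 60.4%, median 50.4%. The groups overlapped, and the highest value was that of 12 h replicate 3. The difference was 6.83 points (0.923 to 12.7, adjusted p = 0.949, limma), with 2.82, 2.74 and 14.9 in the 3 batches, and 4.86 without that replicate. Control had 5.71 points. The neighbouring Cdkn2a cluster had 78.0% ± 3.08 early and 76.4% ± 1.67 late. Its groups overlapped, with early levels from 74.1% in 2 h replicate 3 to 82.7% in 2 h replicate 2 and late levels of 73.9 to 78.9%. Ccnd1, the cyclin D1 gene, had 4.85% ± 3.07 and 8.63% ± 3.07 (difference 3.78, -0.169 to 7.72), and Bcl2l1, which encodes the survival protein Bcl-xL, 0.864% ± 0.711 and 0.0645% ± 0.158.

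The methylation machinery was itself unmethylated at most starts, 24 of 32 clusters. The exception with the largest difference was Tet2, an enzyme that oxidises methylcytosine (chr3:133544303-133544985, 76 positions). Early levels were 48.2 to 55.6%, median 53.1%, and late levels 44.7 to 83.7%, median 63.1%. The early samples lay close together while the late ones spread to both sides, with the highest in 12 h replicate 3. The difference was 10.2 points (-2.27 to 22.7, adjusted p = 0.949, limma), and it was 14.3, 0.0616 and 16.3 in the 3 batches. Without the 12 h replicate 3 it was 5.39 points (-2.92 to 13.7). None of the 32 clusters had an unadjusted p under 0.05. Such a p was found in 4.45% of all, 4.14% of promoter and 2.29% of low promoter clusters. With so few clusters nothing is read from the absence.

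Imprinted genes held the largest negative difference of the 13 lists. Of 36 clusters at 18 of 24 genes, 28 were high and 6 partly methylated, and 3 were lower and 0 higher at an unadjusted p under 0.05, where 1.29% and 3.17% of all clusters were. At Kcnq1ot1, a paternally expressed noncoding RNA whose start lies in an imprinting control region (chr7:143295405-143295611, 26 positions), early levels were 35.9 to 58.3%, median 50.7%, and late levels 15.9 to 45.5%, median 37.8%. Each batch was lower late, but the groups overlapped. The difference was -13.5 points (-22.6 to -4.37, adjusted p = 0.949, limma), with -17.8, -16.7 and -5.88 in the 3 batches, and -14.1 without the 12 h replicate 3. In Control it was 2.10 points, and between 0 h and 24 h in the Ikaros series -1.59.

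At Zrsr1, a paternally expressed splicing factor gene (chr11:22972855-22973162, 35 positions), early levels were 54.7 to 72.1%, median 63.4%, and late levels 41.4 to 68.1%, median 49.1%. All late samples but 1 lay below every early sample, and 18 h replicate 3, at 68.1%, lay above most of them. The difference was -12.2 points (-21.3 to -3.11, adjusted p = 0.949, limma), -8.60 without the 12 h replicate 3 and -2.21 in Control. Another imprinted gene, Gnas, had partly methylated clusters that differed by 3.49 and 4.93 points, with intervals that include 0. The first rested on single samples, since 12 h replicate 2 was at 0% there. It was 11.8 points without that sample and -1.57 without the 18 h replicate 2. The second was 2.30 points without the 12 h replicate 3, 2.48 without the 6 h replicate 3 and 8.44 without the 18 h replicate 1. The third cluster of the list at an unadjusted p under 0.05, named after its values were seen, was at Grb10, with 99.1% early and 98.3% late. Imprinted regions as a group thus showed no single direction, with 18 clusters higher and 18 lower and a median of -0.0250 points.

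In the Notch list, 40 clusters at 18 of 19 genes included 19 low, 6 partly methylated and 15 high ones, and the median difference was 0.160 points. A cluster at the ligand gene Dll1 (chr17:15375632-15375964) had early levels of 34.4 to 51.7%, median 44.0%, and late levels of 9.72 to 49.5%, median 35.1%. The late samples spread downward, and the difference was -12.3 points (-28.4 to 3.92, adjusted p = 0.949, limma), against 4.50 in Control. The batch differences were -3.83, -18.1 and -14.9 points, and without the 12 h replicate 2, which was at 9.72%, the difference was -6.55 (-18.9 to 5.83). Lfng, a glycosyltransferase that modifies Notch, had 95.9% ± 1.97 and 97.9% ± 1.75. In this list 2 of the 40 clusters were higher and 0 lower at an unadjusted p under 0.05, which is near the 3.17% and 1.29% of all clusters. Germline genes, which are methylated in most body cells, had 12 high and 1 partly methylated cluster. Of these 13 clusters 1 was higher and none lower at an unadjusted p under 0.05, beside the same shares of all clusters. Their differences lay between -2.32 points at Sycp1 and 2.26 at Taf7l. The first was -0.815 without the 12 h replicate 2 and the second 1.23 without the 2 h replicate 2.

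**Figure D5:**
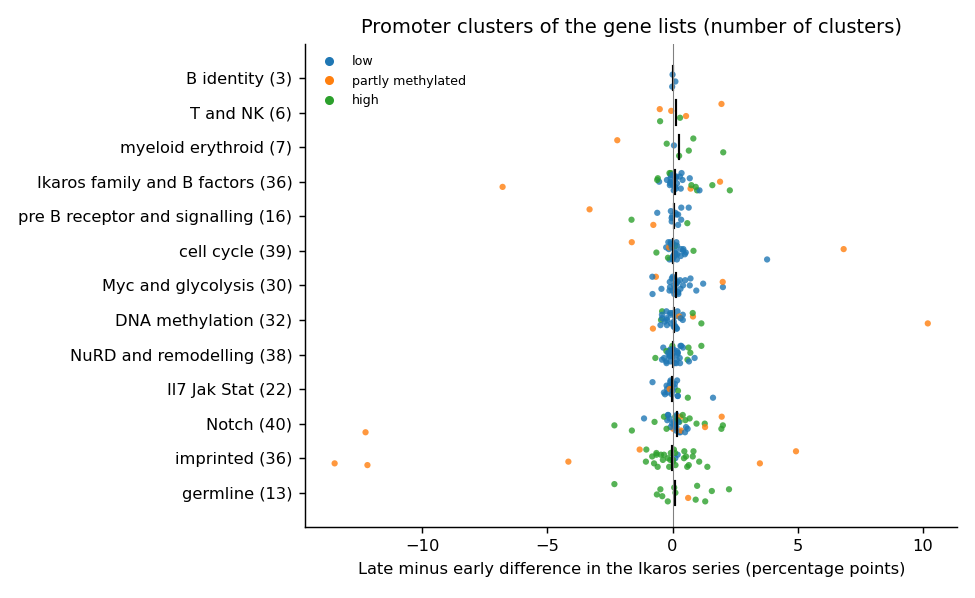
Late minus early difference (percentage points) of the promoter clusters of the 13 gene lists in the Ikaros series, coloured by starting level, with the median of each list as a black bar and its number of clusters in brackets. Medians lie close to 0, and the points beyond 5 points in either direction are all partly methylated, namely Kcnq1ot1, Zrsr1, Dll1, Pou2f2, Tet2 and Cdkn2a.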

How the data were processed

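The authors trimmed the RRBS reads with Trim Galore, mapped them to GRCm38 with Bismark 0.10.1 and Bowtie2 and ignored the first bases of each read. BiSeq was then used to cap the coverage of very deep sites and to smooth the levels inside CpG clusters. The smoothed methylation level of each listed position was deposited by the authors as a fraction, and also as an M-value on a log2 scale computed from levels limited to 0.01 to 0.99. Both tables lack coverage, so the depth is unknown and no coverage minimum could be set. Smoothing ties neighbouring positions together, so the cluster was the unit. Groups and batches were taken from the labels.

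Cluster means in percent were computed with Python 3.11.15 and numpy 2.4.6 and tested with the lmFit and eBayes functions of limma 3.58.1 under R 4.3.3 (late against early with batch as a block, Benjamini-Hochberg). Mean levels were compared by the two-sided exact permutation test within batches, with intervals by inversion, and the Control series was added as an interaction. Replicate numbers are batches in the labels. Deviations of samples with the same number correlated at -0.0778 to 0.0603 over 18 pairs. P-values measure the spread between cultures of 1 line. Starts and contexts came from GENCODE M21 (GRCm38), and 1116322 of 1116417 listed positions fell on a CG of that build.

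The leading clusters were the 10 with the smallest p in each direction that differed by at least 2 points with 1 sign in every batch and without the 12 h replicate 3. Of each gene list the 2 largest differences in either direction could be named. The comparison, the members and the lists were chosen with earlier results of these data known. The values of 1 leading cluster are not reported here. Both steps were tested on simulated data. For limma the simulated shifts were far larger than most differences seen here and left out the clusters of widest spread, so small differences were not covered. The alternatives were no block, M-values, other joining distances and sets of positions, single time points and each sample left out.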

Additional observations from a re-analysis of the deposited data

How the results depend on the processing

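No cluster was called late against early under any alternative run, which were no block, M-values, limma with trend and robust, at least 20 positions, positions complete in 36 samples, joining at 50 bp, single positions, single time points, all 18 Ikaros samples, and each sample left out. The number at an unadjusted p under 0.05, 799 of 17943 in the report, ran, with 1 sample left out, from 733 without the 12 h replicate 3 to 923 without the 18 h replicate 3, and the smallest adjusted p was 0.0669, without the 18 h replicate 1. With no replicate block it was 821 clusters, again 0 called, the mean differences were the same (0.133 points over all clusters, exact p = 0.139), and 0 were called for a difference between the series. That difference had 1 call when positions were joined at 50 bp, of 37410 clusters, a pair of neighbouring positions at the Napb promoter (chr2:148731807-148731808) with 20.6% early and 22.8% late in Ikaros, and 23.2% and 20.4% in Control (adjusted p = 0.0358, limma).

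The mean level of intron clusters turned to -0.0121, -0.0370 and -0.0497 points without the 2 h replicate 1, the 12 h replicate 3 and the 18 h replicate 2, and its differences with a sample left out ran from -0.0497 to 0.126. The same ranges were 0.0854 to 0.180 over all clusters, 0.00473 to 0.0970 over low, 0.263 to 0.468 over partly methylated, 0.0974 to 0.224 over high, 0.0828 to 0.178 over promoter, 0.103 to 0.245 over exon and 0.0938 to 0.219 over intergenic clusters. The median over partly methylated clusters differed by 0.835 points (exact p = 0.0556, adjusted p = 0.352), against 0.365 for the mean, while the median over promoter clusters differed by 0.0399 points (exact p = 0.843), against 0.130 for the mean. On the M-value scale, in log2 units and so not comparable in size, the means differed by 0.0512 over all and 0.0498 over partly methylated clusters (exact p = 0.259 and 0.0926). No other mean level changed direction or passed the threshold. The 20 leading clusters stayed uncalled with no block, with M-values, with limma's trend and robust options and with each sample left out. These were the alternatives run on them, and they kept their direction in each. That direction is no support, since 1 sign in every batch and without the 12 h replicate 3 was a condition of their choice. Leaving out the block or adding the trend and robust options does not alter a cluster's difference in this balanced design. Starts of protein-coding genes only, the counts without the 12 h replicate 3, the 24 h levels without the 24 h replicate 2 and the gene list clusters without each sample were added after seeing the data. The cause of these shifts was not tested.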
